A study of Homo sapiens with 4 samples.

Results

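Mitochondrial ribosomal protein mRNAs were examined in a native RNA immunoprecipitation (RIP-seq) of ORC1 from nuclei of HCT116 cells. The genes were chosen by name: protein-coding genes of GENCODE v44 whose symbol is MRPL or MRPS followed by a number and, where there is one, a letter. This gave 78 genes, of which 77 were found among the 63677 genes of the count table by Ensembl identifier. MRPL45, whose identifier was not matched, is not analysed here. HCT116 is a colorectal carcinoma line with epithelial features, and ORC1 is a subunit of the origin recognition complex, which marks the sites where DNA replication can start. All 4 libraries came from asynchronous HCT116 cells after 48 h of transfection with pcDNA3.1-ORC1-3xFLAG, so the cells of both groups made tagged ORC1 beside their own. Nuclear lysates were precipitated, with no crosslinking, with the anti-FLAG M2 antibody to give the IP libraries (n = 2), and nuclear RNA with no antibody gave the Input libraries (n = 2). Input was the only reference used here, so RNA held by beads or antibody and RNA held by tagged ORC1 cannot be told apart in the values below. For its RIP of endogenous ORC1, the study reported that RNA from control IgG was below detection. No such control is among these 4 libraries.

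Mitochondria carry their own ribosomes, the mitoribosomes, which translate the few messages of mitochondrial DNA into core subunits of the respiratory chain. Their ribosomal RNAs are transcribed inside the mitochondrion, whereas every mitoribosomal protein is encoded in the nucleus, translated in the cytosol and imported. Most proteins of the large subunit carry the names MRPL and most of those of the small subunit MRPS. Some descend from bacterial ribosomal proteins, and others joined the ribosome only in mitochondria.

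The study reported GAA repeats, found by motif search, as enriched in RNAs bound by ORC1. These mRNAs were therefore searched for the letters GAAGAAGAA on the sense strand of the longest annotated transcript. This exact run is another measure than that motif, so the shares below cannot be set against those of the study. The run was present in 2 of the 74 tested genes, or 2.70% (exact 95% binomial interval 0.329 to 9.42%). Among tested protein-coding genes the run was present in 14.6%. It was in 8.38% of the 5646 with a coding length no greater than the longest here, a cap and not a match in length. The 3 genes that hold it, MRPL45 included, all have it in the coding sequence, as the following windows of 30 bases of the canonical transcripts show, with the run in capitals.
MRPL22: cgaaaatgggaGAAGAAGAAtaaaattgtt
MRPL48: gaagagcccaaGAAGAAGAAgggaaaagtg
MRPL45: agctgaaaccaGAAGAAGAAtatgaagagg
These windows are shown because they are the only places in the family that match the repeat at this length. Counted from the first base of each transcript, the runs span bases 176 to 184 in MRPL22, 305 to 313 in MRPL48 and 884 to 892 in MRPL45 (GENCODE v44). MRPL22 lies on the plus strand of chromosome 5 from 154941073 to 154969411, and MRPL48 on the plus strand of chromosome 11 from 73787872 to 73865133 (GRCh38). The log2 fold change of IP over Input was -0.89 ± 0.23 (SE, adjusted p = 0.0354, edgeR) for MRPL22, a protein at the exit of the peptide tunnel. For MRPL48 it was -0.51 ± 0.28 (adjusted p = 0.221, edgeR). Neither gene that holds the run and was measured lay above Input.

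The total counts of the IP libraries were 27483148 (replicate 1) and 20280445 (replicate 2), and the Input totals were 14677002 and 9213877. All 7 epithelial markers had at least 10 counts in every library. Blood markers had at most 5 counts in any library, with 2 of 5 at 0 throughout. Fibroblast and endothelial markers summed to 8.36 to 29.2 CPM (counts relative to the library size, as defined below), with 2 of 5 at 0. Most of that sum was COL1A1, with 450 and 470 counts in IP and 138 and 126 in Input. Levels are given as counts per 1000000 of a library size that was corrected with trimmed mean of M (TMM) factors, which set the average gene equal between libraries. A gene was called enriched or depleted at a Benjamini-Hochberg adjusted p under 0.05 and a change past 1 on the log2 scale, by the quasi-likelihood test of edgeR on all 14645 genes that passed its count filter. With 2 libraries per group, p-values measure only the spread between these libraries. Floors cover counting error alone, because reads carried no molecular identifiers. The binomial interval of the GAAGAAGAA share concerns a number of genes and not reads.

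Mitochondrial ribosomal protein mRNAs were, for the most part, less abundant in ORC1-FLAG IP than in nuclear Input. Of the 74 genes tested, 17 were depleted (23.0%), beside 8.3% of all genes tested, and 0 were enriched, beside 10.5% of all genes tested. Of the 1267 tested protein-coding genes with coding sequences of 153 to 561 bases, 18 were enriched. With DESeq2 (1674, or 5.23%, of 31990 genes enriched) and with limma voom (10.5% of 14645) the count of enriched genes among the 74 was also 0. Here and below, DESeq2 shares are of all 31990 genes with any count, so they cannot be set against edgeR shares of filtered genes. With the replicate number as a block it was 1, MRPL21, in edgeR (13.4% of all genes) and in DESeq2 (5.66%). At an unadjusted p under 0.05, edgeR without the block placed 29 of the 74 below and 5 above Input. Of all 14645 genes tested it placed 2608 below and 3078 above. Such counts over all genes are not given here for the other settings. The 5 of the 74 above Input became 14 with the replicate number as a block (10 with that block in DESeq2). It also moved when single libraries were left out. The median log2 fold change was -0.50, with quartiles of -0.92 and -0.03, whereas the median over all genes tested was 0.01. In all, 56 genes had a negative and 18 a positive fold change. The libraries are bulk RNA, so IP and Input levels are averages over many cells, and differences between cells cannot be seen. Both IP libraries lay below both Input libraries, without overlap, in 38 genes (51.4%, beside 31.9% of all genes tested), and both lay above in 11 (14.9%, beside 33.2%). Scaling by library totals alone lowered the median over all genes to -0.59 and that of these genes to -1.10 and called 41 depleted (22.2% of all genes), so the directions given here are relative to the average gene. Over the whole table, the split of 1542 enriched and 1215 depleted genes became 380 and 3257 with that scaling, and 1080 and 1542 with upper-quartile scaling.

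Taken as a sum, the family made up 0.296% and 0.259% of the counts of IP replicates 1 and 2, and 0.553% and 0.422% of those of Input replicates 1 and 2. On the scaled CPM this was 3908 and 2985 in IP against 4651 and 3330 in Input, so on that scale the groups overlapped. Replicate 1 of both groups was higher than replicate 2. The ratio of IP to Input was therefore also taken within each replicate number, since the labels give each IP and Input pair as the same RIP replicate. The median log2 ratio was -0.47 in replicate 1 and -0.41 in replicate 2, with 0.05 and -0.02 over all genes tested.

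Within a gene, the replicates gave the same sign of that ratio in most cases. Both ratios were negative in 51 of the 74 genes and both positive in 17, and the signs were opposite in 6. Of all 14645 genes tested these were 6109, 6286 and 2250. Both were below -1 in 13 of the 74 genes and above 1 in 0, beside 1020 and 1311 of all genes tested. Across the 74 genes the ratios of the replicates had a Pearson correlation of 0.889 and a Spearman correlation of 0.896, as a description over genes, which are not independent. The gene with the widest gap among those of opposite sign was MRPS9, at -0.38 in replicate 1 and 0.41 in replicate 2. MRPS33 followed, at -0.33 and 0.34, and then MRPL9, at -0.47 and 0.0014. In 47 genes (63.5%) replicate 1 had the lower ratio, beside 43.4% of all genes tested, and this held for 14 of the 17 depleted genes.

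**Figure D1:**
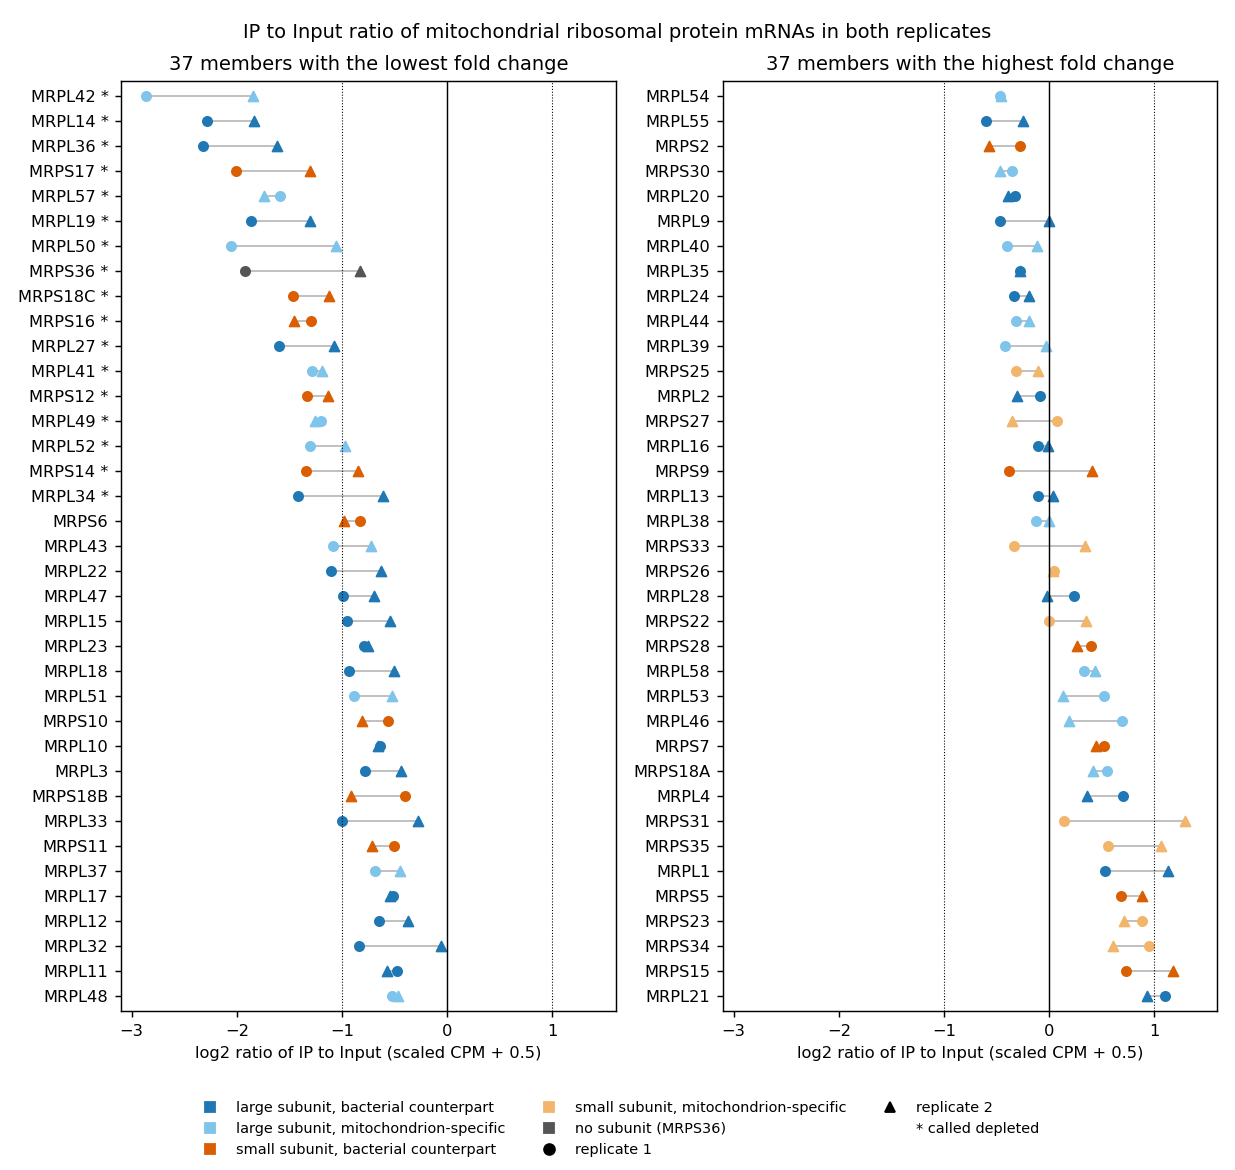
Log2 ratio of IP to Input for the 74 tested genes, sorted by fold change from top left to bottom right, with replicate 1 as a circle and replicate 2 as a triangle, coloured by the place of the protein in the mitoribosome. The 17 depleted genes, marked with an asterisk, fill the top of the left panel, and only the lower part of the right panel has both symbols to the right of 0.

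The largest depletion was that of MRPL42, which encodes a protein found in mitochondrial but not in bacterial ribosomes. MRPL42 lies on the plus strand of chromosome 12 from 93467514 to 93516214 (GRCh38), and 253 and 238 counts were found in IP against 1603 and 584 in Input. On the scaled CPM this was 12.2 and 13.5 in IP and 91.8 and 50.0 in Input. The IP libraries were alike and both lay far under the lower Input library. The log2 fold change was -2.47 ± 0.33 (SE, adjusted p = 0.0105, edgeR), a level 5.53-fold lower in IP.

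MRPL14, the mitochondrial form of a bacterial protein that sits at the interface of the subunits, came next. MRPL14 (chromosome 6 from 44113451 to 44127452, minus strand) had 170 and 135 counts in IP and 729 and 335 in Input, or 8.16 and 7.68 CPM against 41.8 and 28.7 CPM. Its log2 fold change was -2.15 ± 0.27 (adjusted p = 0.0105, edgeR). MRPL36 is the form of a small bacterial zinc-binding protein of the large subunit. MRPL36 (chromosome 5 from 1798385 to 1801366, minus strand) had 83 and 80 counts in IP and 383 and 176 in Input, or 3.99 and 4.55 CPM against 21.9 and 15.1 CPM, with a log2 fold change of -2.12 ± 0.29 (adjusted p = 0.0105, edgeR). For both genes the IP libraries differed little from each other and the groups did not overlap.

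MRPS17, the counterpart of a bacterial protein that binds the ribosomal RNA of the small subunit, was the scarcest of the depleted genes. Its counts were 39 and 30 in IP and 158 and 58 in Input, and its log2 fold change of -1.97 ± 0.42 had the largest SE of the 17 (adjusted p = 0.0200, edgeR). MRPL57, a small protein specific to mitochondria, had 198 and 105 counts in IP and 519 and 247 in Input, with a log2 fold change of -1.71 ± 0.32 (adjusted p = 0.0154, edgeR). The last of the 6 largest depletions was MRPL19, a bacterial-type protein near the subunit interface, with 613 and 399 counts in IP, 1894 and 664 in Input and a log2 fold change of -1.67 ± 0.35 (adjusted p = 0.0198, edgeR). In these 3 genes, too, scaled levels of IP and Input did not overlap.

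The other 11 depleted genes had log2 fold changes from -1.65 to -1.07. In descending size of the change they were MRPL50, MRPS36, MRPS18C, MRPS16, MRPL27, MRPL41, MRPS12, MRPL49, MRPL52, MRPS14 and MRPL34. MRPL27 encodes the counterpart of a bacterial protein next to the peptidyl transferase centre, and MRPS12 that of a protein of the decoding centre. MRPL27 had 28.0 and 27.8 CPM in IP against 85.7 and 59.4 CPM in Input, and MRPS12 had 21.5 and 18.1 CPM against 55.0 and 40.3 CPM. MRPS36 carries the name of a ribosomal protein but is known as a subunit of the 2-oxoglutarate dehydrogenase complex, and its levels were 4.03 and 5.23 CPM in IP against 16.7 and 9.67 CPM. Across all 17, adjusted p ranged from 0.0105 to 0.0353 and SE from 0.22 to 0.42 (edgeR). Nearest to the threshold from inside were MRPS14 (log2 fold change -1.14, adjusted p = 0.0211) and MRPL34 (-1.07, adjusted p = 0.0353), and from outside MRPS6 (-0.94, adjusted p = 0.0328) and MRPL43 (-0.93, adjusted p = 0.0318; all edgeR). With MRPL22 and MRPL23, these last made up 4 genes that passed the adjusted p but not the fold.

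The same 17 genes were depleted with DESeq2 (3.65% of all genes in that fit depleted), limma voom (7.78%), RLE scaling (8.62%), at least 1 CPM in 2 libraries (9.58%), no count filter (5.05%), the replicate number as a block (13.4%) and DESeq2 with that block (4.01%), and upper-quartile scaling called 21 (10.5%). The shares for DESeq2 and for no count filter are of 31990 genes with any count, many of them not testable in the filtered fits. They are therefore lower than shares of filtered genes would be. Leaving out single libraries moved the calls. Without IP replicate 1, 12 genes were depleted, beside 5.27% of all genes (MRPL34, MRPL52, MRPS14, MRPS18C and MRPS36 were lost), and without Input replicate 1, 11, beside 9.5% (MRPL34, MRPL49, MRPS12, MRPS14, MRPS17 and MRPS36 were lost). The count was 16 without IP replicate 2 (6.65% of all genes), with MRPL49 lost, and 27 without Input replicate 2 (11.8%). The 9 genes that were depleted in all 13 alternative settings were MRPL14, MRPL19, MRPL27, MRPL36, MRPL41, MRPL42, MRPL50, MRPL57 and MRPS16.

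At the other end stood MRPL21, the counterpart of a bacterial protein of the large subunit. MRPL21 lies on the minus strand of chromosome 11 from 68891276 to 68903835, and its counts were 2732 and 1292 in IP and 1061 and 447 in Input, or 131 and 73.5 CPM against 60.8 and 38.3 CPM. Both IP libraries lay above both Input libraries. The log2 fold change was 1.05 ± 0.36 (adjusted p = 0.0762, edgeR), which is past the fold but not the p, and with the replicate number as a block in the fit it was 1.03 (adjusted p = 6.1e-05, edgeR) and the gene was called enriched, as were 13.4% of all genes in that fit. The block in DESeq2 also called it, with 5.66% of the 31990 genes of that fit enriched.

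Behind MRPL21 came MRPS15, a bacterial-type protein of the small subunit, and MRPS34 and MRPS23, which are specific to mitochondria. MRPS15 had 2190 and 1332 counts in IP and 1100 and 388 in Input, with a log2 fold change of 0.91 ± 0.35 (adjusted p = 0.101, edgeR). MRPS34 had 4127 and 2039 against 1788 and 888 and a log2 fold change of 0.82 ± 0.32 (adjusted p = 0.111, edgeR). MRPS23 had 5845 and 3628 against 2651 and 1472 and a log2 fold change of 0.81 ± 0.27 (adjusted p = 0.0689, edgeR). In each of these 3 genes both IP libraries lay above both Input libraries on the scaled CPM, but none passed the test. Without IP replicate 2, 6 genes were enriched, beside 12% of all genes (MRPL1, MRPL21, MRPS15, MRPS23, MRPS34 and MRPS35), and without Input replicate 1, 7 were, beside 11.9% (MRPL1, MRPL21, MRPS5, MRPS15, MRPS31, MRPS34 and MRPS35). Without IP replicate 1 or Input replicate 2 the count was 0, with 8.04% and 9.23% of all genes enriched and 0 of these genes above Input at an unadjusted p under 0.05.

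Some mRNAs were precipitated about as the average gene was. Nearest to 0 were MRPS33, with 726 and 626 counts in IP and 769 and 327 in Input, MRPS26, with 1140 and 657 against 928 and 426, and MRPL38, with 9 and 30 against 9 and 20. Their log2 fold changes were -0.03 ± 0.27, 0.04 ± 0.29 and -0.04 ± 0.89, so that of MRPL38 was poorly determined. MRPL38 and MRPL53 were the tested genes with the fewest Input counts, and MRPL53 had 25 and 24 counts in IP and 12 and 14 in Input. In GENCODE v44, other genes cover 45.1% of the exonic bases of MRPL38 and 99.4% of those of MRPL53, and how reads on shared bases were assigned is not given in the sources used here. The most Input counts belonged to MRPS27, a pentatricopeptide repeat protein of the small subunit, with 4412 and 2472 in IP and 3502 and 2107 in Input (log2 fold change -0.11 ± 0.28), and to MRPL3, with 2643 and 1676 against 3820 and 1509 (-0.65 ± 0.32).

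**Figure D2:**
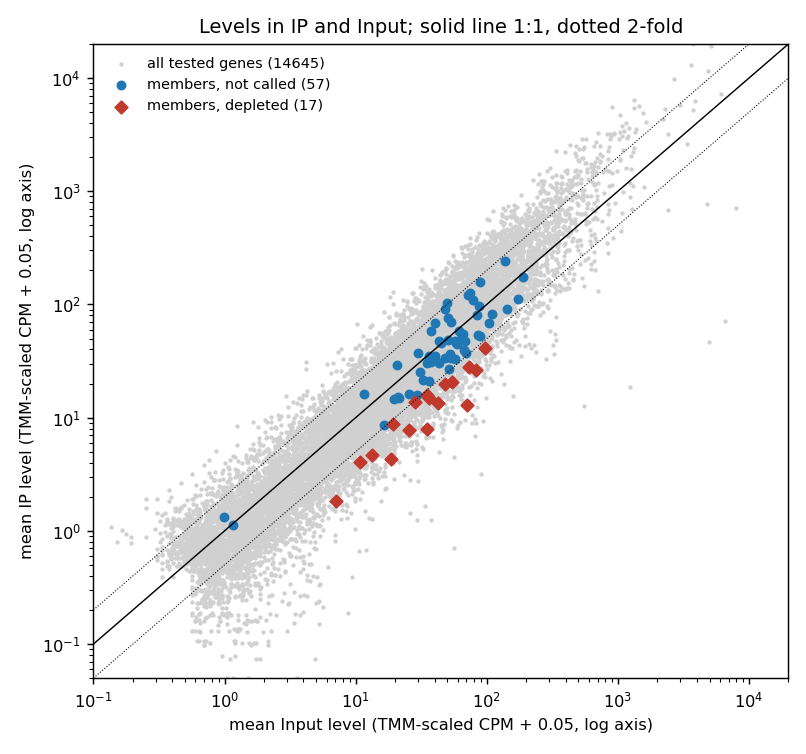
Mean level in IP against mean level in Input, as TMM-scaled CPM plus 0.05 on log axes, for all 14645 genes tested (grey), the 57 tested mitochondrial ribosomal protein genes that were not called (blue) and the 17 depleted ones (red diamonds). The depleted genes span mean Input levels of 7.01 to 96.7 CPM and lie under the lower dotted line of a 2-fold difference.

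In nuclear Input these mRNAs were well represented. Their median level was 48.0 CPM, against 19.2 CPM over all genes tested and 25.2 CPM over tested protein-coding genes. Per kilobase of exonic length it was 18.1 CPM, against 4.49 CPM over tested protein-coding genes. The depleted genes had a median Input level of 35.2 CPM and the others one of 51.0 CPM. Of the 3 genes in the table whose counts did not pass the filter, MRPS21 was listed at 0 in all 4 libraries, which for counting error alone allows up to 3 counts in each, or 0.144 to 0.257 CPM. MRPL30 had 0 counts in both IP libraries and 1 and 5 in Input, and MRPS24 had 2 and 2 in IP and 3 and 3 in Input. MRPS21 has 8 named pseudogenes, the most of the family, and other genes on the same strand cover 23.2% of the exonic bases of MRPS24 and 11.8% of those of MRPL30, so their counts are uncertain as measures of level.

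By place in the ribosome, the large subunit had 11 of 49 tested genes depleted (22.4%, beside 8.3% of all genes tested), with a median log2 fold change of -0.53, and the small subunit 5 of 24 (20.8%), with a median of -0.08. Without Input replicate 2 the 11 of the large subunit became 20, and the 5 of the small subunit became 3 without IP replicate 1 and 2 without Input replicate 1. MRPS18A and MRPS30, which sit in the large subunit in spite of their names, were counted there. MRPS18A was listed as specific to mitochondria, whereas MRPS18B and MRPS18C were listed as having a bacterial counterpart. The split of the small subunit below depends on the place of MRPS18B (-0.64, unadjusted p = 0.0418, edgeR). It is the median of its group, and in the mitochondrion-specific group it would be the lowest value. Within the large subunit, 5 of 29 genes with a bacterial counterpart (median -0.53) and 6 of 20 that are specific to mitochondria (median -0.50) were depleted, which became 11 and 9 without Input replicate 2. Within the small subunit, 5 of 15 genes with a bacterial counterpart were depleted (median -0.64), the 5 that also made up the count of the whole subunit, and 0 of 9 mitochondrion-specific genes (median 0.15), where edgeR, DESeq2 and limma voom all gave 0 and an unadjusted p under 0.05 was reached by 2 above and 0 below Input. The 9 ranged from -0.20 to 0.82, with 3 enriched when IP replicate 2 or Input replicate 1 was left out, and the difference between these groups of genes was not tested.

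Parts of the large subunit with a known role can be read from the same fit, with genes chosen here after their values were seen. Among genes for proteins around the exit of the peptide tunnel, log2 fold changes were -0.89 for MRPL22, -0.88 for MRPL47, -0.78 for MRPL23 and -0.27 for MRPL24. Among those of the stalk that recruits translation factors, they were -0.66 for MRPL10, -0.52 for MRPL11 and -0.53 for MRPL12. These genes are examples, and neither part is given in full. None of the 7 was called. MRPL58, a peptidyl-tRNA hydrolase that also rescues stalled ribosomes, had a log2 fold change of 0.38 ± 0.31 (adjusted p = 0.408, edgeR), and MRPL44, related to ribonuclease III, had -0.27 ± 0.24 (adjusted p = 0.466, edgeR).

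A few proteins of the small and large subunits have names outside the MRP series, and 5 such genes were followed. CHCHD1 was depleted, at 10.3 and 12.3 CPM in IP against 31.5 and 20.8 CPM, with a log2 fold change of -1.21 ± 0.28 (adjusted p = 0.0261, edgeR). PTCD3, a pentatricopeptide repeat protein of the small subunit, was enriched, at 274 and 206 CPM in IP against 126 and 111 CPM, with a log2 fold change of 1.01 ± 0.26 (adjusted p = 0.0331, edgeR). DAP3, a GTP-binding protein of the small subunit, had a log2 fold change of 0.78 ± 0.24 (adjusted p = 0.0546), and AURKAIP1 one of -0.23 ± 0.28 (adjusted p = 0.597; both edgeR). GADD45GIP1, of the large subunit, had 1.07 ± 0.37 (adjusted p = 0.0762, edgeR) and was called enriched with the replicate block, at 1.05 (adjusted p = 4.8e-05, edgeR). The call of CHCHD1 was lost without IP replicate 1 or Input replicate 1, and that of PTCD3 without IP replicate 1 or Input replicate 2 and under each other scaling and filter.

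Nuclear genes that serve mitochondrial translation without being part of the ribosome were called enriched about as often as all genes tested. Of 17 translation factors and activators, 2 were enriched (11.8%, beside 10.5% of all genes tested) and 0 depleted, beside 8.3% (0 also by DESeq2 and limma voom, and 0 at an unadjusted p under 0.05), with a median log2 fold change of 0.40. The enriched genes were LRPPRC (1.45 ± 0.29, adjusted p = 0.0174), a stabiliser of mitochondrial mRNA, and the initiation factor MTIF3 (1.05 ± 0.27, adjusted p = 0.0356), and TACO1 followed with 0.96 ± 0.28 (adjusted p = 0.0481, all edgeR). Of 26 tested factors of ribosome assembly and ribosomal RNA processing, 3 were enriched (11.5%, beside 10.5%), MTERF4 (1.17), TFB1M (1.05) and FASTKD2 (1.00), and 0 depleted (0 also by DESeq2 and limma voom, with 5 below Input at an unadjusted p under 0.05), with a median of 0.06. Of these 26 genes, 7 were depleted under library size scaling, where 22.2% of all genes were, and some were also depleted without Input replicate 2.

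The 20 genes for mitochondrial aminoacyl-tRNA synthetases and the glutamyl-tRNA amidotransferase had a median of 0.11. Of them 2 were enriched (10%, beside 10.5% of all genes tested) and 2 depleted (10%, beside 8.3%). LARS2 (1.23) and AARS2 (1.16) were enriched, and the amidotransferase subunit GATC (-1.66) and NARS2 (-1.11) were depleted. In these 3 lists together, 7 of 63 tested genes were enriched (11.1%, beside 10.5% of all genes tested) and 2 depleted (3.17%, beside 8.3%). The median was 0.26, but their median coding length was 1311 bases, against 591 bases for the mitochondrial ribosomal proteins. For comparison, the 76 tested cytosolic ribosomal protein genes had 30 depleted (39.5%, beside 8.3% of all genes tested) and 9 enriched (11.8%, beside 10.5%), with a median of -0.58. The 76 nuclear-encoded subunits of the respiratory chain had 32 depleted (42.1%) and 4 enriched (5.26%), with a median of -0.85. These 2 lists are also short, with median coding lengths of 468 and 423 bases. Of all tested protein-coding genes of 153 to 561 bases, 34.4% were depleted. The count of 9 enriched cytosolic ribosomal protein genes became 1 without IP replicate 1, 1 without Input replicate 2 and 1 under library size scaling. It became 14 without Input replicate 1. For the respiratory chain, the 4 became 2 without IP replicate 1, 7 without IP replicate 2 or Input replicate 1, and 0 without Input replicate 2 and under library size scaling. Differences between the lists were not tested. Of the 3 lists together, 3 genes were enriched and 1 depleted without IP replicate 1 (beside 8.04% and 5.27% of all genes), and 11 and 2 without IP replicate 2 (12% and 6.65%). Leaving out Input replicate 1 gave 10 enriched and 1 depleted (11.9% and 9.5%), and leaving out Input replicate 2 gave 5 and 6 (9.23% and 11.8%). Under library size scaling no gene of the 3 lists was called enriched, and of the named calls GATC alone held in every setting run, while those of LRPPRC and LARS2 were lost only under that scaling.

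**Figure D3:**
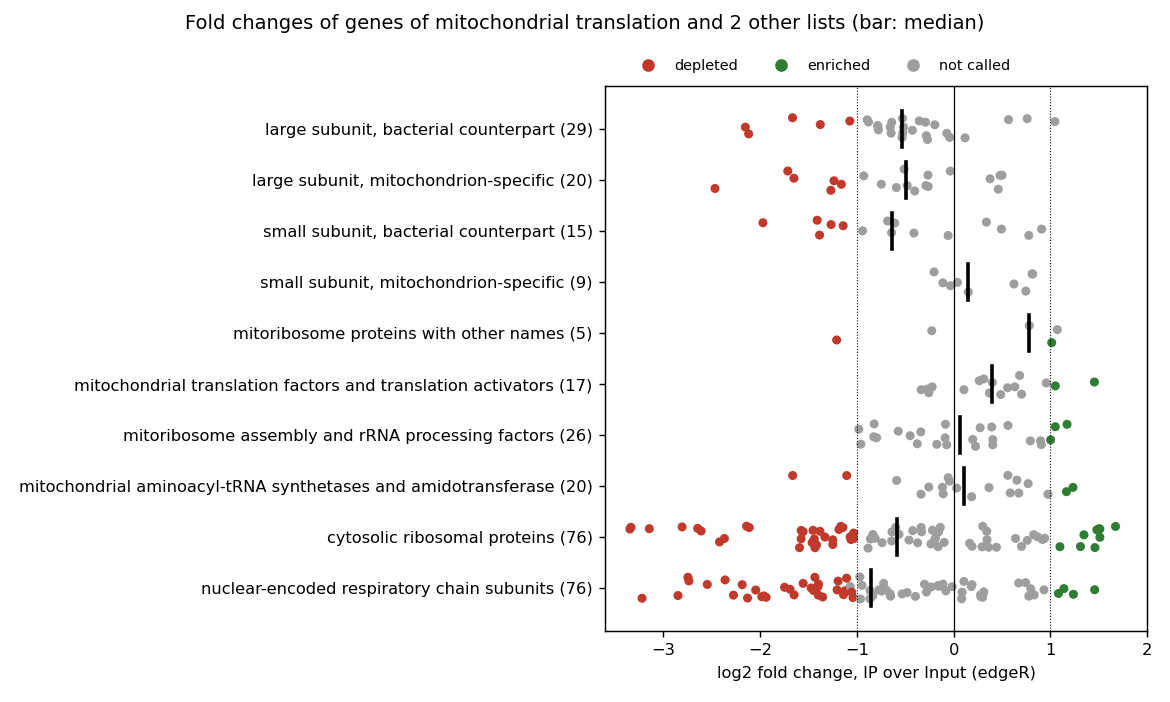
Log2 fold change of IP over Input for each tested gene of the 4 groups of mitochondrial ribosomal proteins and of 6 related lists, with the number of genes in parentheses, the call as colour and the median as a black bar. Depleted genes (red) are found in 3 of the 4 mitochondrial ribosomal protein groups, and their medians lie at -0.53, -0.50, -0.64 and 0.15.

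Mitochondrial ribosomal proteins are short, and the fold changes of their mRNAs were related to coding length. The coding sequence of the canonical transcript, without the stop codon, ranged from 195 bases in MRPL33 to 1317 bases in MRPS30, with a median of 591 bases against 1432.5 bases over tested protein-coding genes. Of the 26 tested genes with a coding sequence under 500 bases, 16 were depleted, and MRPL19, at 876 bases, was the only depleted gene above that length. The shortest, MRPL33, had 283 and 332 counts in IP and 482 and 268 in Input and a log2 fold change of -0.64 ± 0.26 (adjusted p = 0.116, edgeR). The longest, MRPS30, had 2007 and 1216 counts in IP and 2147 and 1121 in Input and a log2 fold change of -0.40 ± 0.27 (adjusted p = 0.311, edgeR). Thus neither end of the range was called. The Spearman correlation of coding length with the log2 fold change was 0.546 over the 74 genes, 0.482 over the 49 of the large subunit and 0.560 over the 24 of the small subunit. It was 0.590 over 12534 tested protein-coding genes, and in the ratios of replicates 1 and 2 of the family it was 0.559 and 0.510.

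Tested protein-coding genes were then divided into 10 deciles by coding length, and all 74 genes fell into the 5 shorter ones. In the shortest, of 153 to 561 bases, 16 of the 31 mitochondrial ribosomal protein genes were depleted and their median was -1.07, while 34.4% of all genes of that decile were depleted and the median was -0.80. In the next, of 564 to 780 bases, 0 of 22 were depleted, with a median of -0.28, while 18.6% of all genes were, with a median of -0.52. The third, of 783 to 999 bases, held 11 of the genes, of which 1 was depleted, with a median of -0.27 against -0.36 over all genes of that decile. Enriched among all genes were 18 of 1267 in the shortest decile, 32 of 1250 in the next and 46 of 1248 in the third. In deciles 4 and 5 they were 44 of 1255 and 65 of 1247, while 0 of the mitochondrial ribosomal protein genes were enriched. Set against the median of its own decile, 40 of the 74 genes lay above, and the median difference was 0.02 on the log2 scale.

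**Figure D4:**
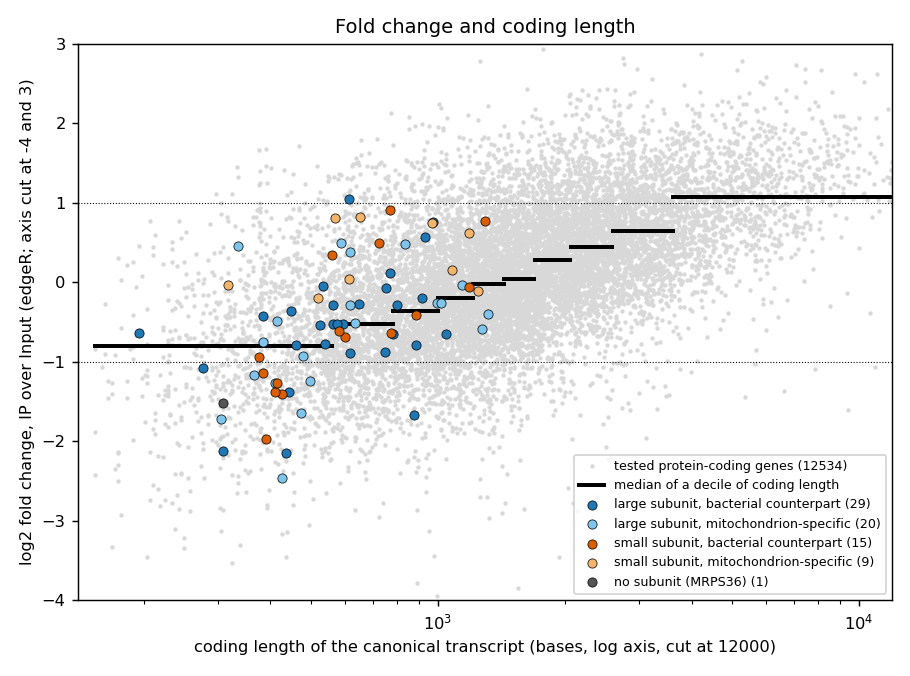
Log2 fold change of IP over Input against coding length on a log axis for tested protein-coding genes (grey), with the median of each decile of coding length as a black line and the mitochondrial ribosomal protein genes coloured by their place in the ribosome. The black lines climb from -0.80 to 1.07, and the coloured points lie on both sides of them, with the depleted genes gathered on the left.

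Other features of the transcripts varied with the fold change to different degrees. Over the 74 genes the Spearman correlation was 0.446 for the number of exons of the canonical transcript, -0.337 for the length of its 3' untranslated region and 0.044 for the whole exonic length of the gene. In tested protein-coding genes the same correlations were 0.531, -0.084 and 0.298. The 17 depleted genes had a median of 3 exons and 1104 bases of 3' untranslated region, and the other 57 had 5 exons and 384 bases. MRPL42 had 14996 bases of it, the most of any depleted gene. The correlation with GC content was 0.077, and that with the Input level 0.149. These are descriptions across genes, which share their libraries.

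Several of these genes have copies or neighbours that can take up reads. Pseudogenes named after a family gene exist in GENCODE v44 for 36 of the genes, 33 of them tested and 9 of them depleted. Of the 79 such pseudogenes 73 were in the table, and summed over these 15 and 38 counts came from IP and 31 and 86 from Input, so few reads were assigned to them. Exons of another gene covered more than 10% of the exonic length in 27 tested genes, 7 of them depleted. These overlaps, and those given above, are of GENCODE v44 (GRCh38). Reads were counted on hg19 genes, where some of the overlapping genes may not be annotated. Without the genes that have such a neighbour 10 depleted genes remain, and without those that have a pseudogene, 8. Of the 26 tested genes with neither, 5 were depleted. MRPL14 is 1 of these, while MRPS17 has 25% of its exonic bases shared and 4 named pseudogenes, so its values are less certain. Whether such reads bear on the fold changes was not tested.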

How the data were processed

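The authors deposited raw read counts per gene for 2 IP and 2 Input libraries, with no normalization. Per the submitters' notes and the study's methods, Trimmomatic was used for trimming, STAR for alignment to hg19 (GRCh37) and featureCounts for counting; the strand setting and the handling of multiply aligned reads are not given in the sources used here. Groups came from the labels. Genes were joined by Ensembl identifier to GENCODE v44 (GRCh38), the source of all coordinates, lengths and sequences. Genes and lists were chosen with earlier results of these data known. Counts were analysed with edgeR 4.0.16 (R 4.3.3): TMM, filterByExpr, robust quasi-likelihood fit, group as the only term, with SE from the fold change and F statistic, after tests on simulated data. Replicate ratios used scaled CPM plus 0.5. Alternatives were other scalings and filters, DESeq2 1.42.0, limma voom 3.58.1, each library left out, and a replicate block. The labels give same-numbered libraries as the same RIP replicate, and their deviations from group means correlated (Pearson r = 0.647). Counts per library were given for the 6 largest depletions, the 4 highest, 3 nearest 0, longest and shortest coding sequence and most and fewest Input counts; from other lists the 3 largest changes and further called genes.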

Additional observations from a re-analysis of the deposited data

How the results depend on the processing

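The same 17 genes were depleted under DESeq2, RLE scaling, limma voom, no count filter, at least 1 CPM in 2 libraries, the replicate block, and DESeq2 with the replicate block, an alternative chosen after seeing the data. Scaling by library size gave 41, with a median of -1.10, median ratios of -1.11 and -0.96 in replicates 1 and 2, and 0 enriched and 10 depleted among the other genes of mitochondrial translation. Upper-quartile scaling gave 21, a median of -0.66 (all genes -0.16), and 2 enriched and 4 depleted in those lists, where no count filter also gave 4 depleted. Leaving out each library in turn, where the lone library of a group is assumed to vary like the other group, gave 11 to 27 depleted and 0 to 7 enriched genes, medians of -0.80 to -0.21, 3 to 11 enriched and 1 to 6 depleted genes in those lists, and correlations with coding length from 0.499 to 0.559. In fits with no count filter the median over all 31990 genes was -0.34 (edgeR) and -0.33 (DESeq2), beside -0.53 and -0.48 for these genes. RLE scaling gave a median ratio of -0.53 in replicate 1. DESeq2 with the block gave a median of -0.44, and both blocked fits called 1 gene enriched, MRPL21. The block raised the depleted genes of the whole table to 1957, and library size scaling gave 380 enriched and 3257 depleted. Without genes that overlap another, 10 were depleted; without those with a named pseudogene, 8, with a median of -0.40. Exonic length gave a correlation of 0.044 in place of coding length. Genes near 0 changed sign, with the range over single libraries left out given last: MRPL38 at 0.0026 (DESeq2) and 0.014 (no filter), -1.27 to 0.89; MRPS26 at -0.57 (library size) and -0.13 (upper quartile), -0.36 to 0.38; MRPS9 at 0.042 (DESeq2 block), 0.019 (voom) and 0.0070 (block), -0.60 to 0.52; MRPS33 at 0.031 (DESeq2 block), -0.47 to 0.37; MRPS27, -0.39 to 0.20; MRPL9, -0.81 to 0.26; AURKAIP1, -0.65 to 0.16; MRPL53 at -0.14 (library size); and MRPL58 at -0.23 (library size), -0.061 to 0.77. The causes were not tested. Beside the calls named, the replicate block changed no other call of a named gene.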
